A study of Homo sapiens with 12 samples.

Results

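The integrin and laminin subunit genes were examined in MCF-10A cells carrying different forms of Notch1. A gene entered the set by its symbol in the platform annotation, which had to be ITGA or ITGB, or LAMA, LAMB or LAMC, with a subunit number or, for integrin alpha chains, a subunit letter. This gave 35 of the 19775 genes tested: 25 integrin chains, of which 18 were alpha and 7 beta, and 10 laminin chains, of which 4 were alpha, 4 beta and 2 gamma. Antisense genes, pseudogenes and integrin-binding proteins with a similar symbol, 11 genes in all, were left out. Each gene was read from 1 probe set, a group of short probes summarised as 1 value, namely its brightest by the mean of all 12 arrays. The 35 genes had 95 probe sets between them.

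MCF-10A is an established, non-tumorigenic human mammary epithelial cell line, and RNA was taken 48 h after retroviral infection. The 4 groups of 3 arrays carried NICD, the free intracellular domain of Notch1, Notch1 L1601P+∆P, full-length wild-type Notch1, or the vector alone. L1601P is a substitution in the heterodimerization domain of the receptor, and ∆P removes the PEST region that limits the life of the intracellular domain. All groups, vector included, were infected with retrovirus and grown under the same standard conditions. The descriptions of the NICD samples add gfp to the name, and neither the meaning of that nor the share of cells infected is given in the sources used here. Whole cultures were measured at 1 time point in 1 cell line, so a change in RNA per cell and a change in the share of cells that make it cannot be told apart.

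Integrins are cell surface receptors, each an alpha chain paired with a beta chain, that bind the extracellular matrix on the outside and the cytoskeleton on the inside. Laminins are trimers of an alpha, a beta and a gamma chain and form the sheet of the basement membrane under epithelia. In basal epithelial cells of the breast and skin, the pair ITGA6 and ITGB4 binds laminin in hemidesmosomes, which anchor the cell to the basement membrane through keratin filaments.

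The constructs and the cell type were checked on the same arrays. On 1 of its probe sets, NOTCH1 had log2 signals of 8.79, 8.75 and 8.83 on the NICD arrays, 8.72, 8.76 and 8.73 on the Notch1 L1601P+∆P arrays, 9.11, 9.19 and 9.17 on the full-length Notch1 arrays, and 6.42, 6.43 and 6.77 on the vector arrays. The log2 fold change against vector was 2.25 ± 0.08 with NICD, 2.20 ± 0.08 with Notch1 L1601P+∆P and 2.62 ± 0.08 with full-length Notch1 (± the standard error of the limma fit). On the other probe set it was 0.28 with NICD, 0.06 with Notch1 L1601P+∆P and 0.08 with full-length Notch1. Where the probes lie in the transcript was not analysed here. Of 10 Notch target genes, 6 rose and none fell with NICD, 5 rose and none fell with Notch1 L1601P+∆P, and none was called with full-length Notch1. The basal epithelial markers KRT5, KRT14 and 4 others were all above the median level of all genes in every group, with an array mean of the list of 12.50 to 12.64 with NICD, 12.72 to 12.77 with Notch1 L1601P+∆P, 12.69 to 12.72 with full-length Notch1 and 12.60 to 12.65 with vector. Of 6 blood cell markers 5 lay below that median in every group, and the leukocyte gene PTPRC averaged 3.63 with NICD, 3.50 with Notch1 L1601P+∆P, 3.52 with full-length Notch1 and 3.63 with vector. None of the 6 blood cell and 6 endothelial markers was called with any form against vector. Among 8 epithelial markers, 3 rose (DSP, KRT8 and JUP) and 3 fell with NICD, with ESRP1 at -1.17 and EPCAM at -0.74. With Notch1 L1601P+∆P, DSP rose and ESRP1 and EPCAM fell. The epithelial marker KRT19 lay below the median level of all genes in every group. Of 8 fibroblast markers, 6 lay below that median in every group, COL1A1 and DCN being above it. DCN rose with NICD (0.36), with 11.17 to 11.26 on the NICD arrays and 10.82 to 10.90 on the vector arrays. Of the 6 basal markers tested, KRT5 (0.58) and KRT14 (0.57) rose and TRIM29 (-0.81) and EGFR (-0.72) fell with NICD. KRT17 and TP63, also on the basal list, were not among the genes tested. Of the tested basal markers, KRT14 (0.58) and KRT5 (0.35) rose and none fell with Notch1 L1601P+∆P, and none was called with full-length Notch1. The part of these shifts in the results below was not tested.

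With NICD, 17 of the 35 genes changed against vector, 5 higher and 12 lower, which is 48.6% of the set. Over all genes tested 27.6% were called, 9.54% higher and 18.1% lower. After cyclic loess normalization 50.1% of the called genes were higher, against 34.6% with the deposited values. Called means an adjusted p under 0.05, by the Benjamini-Hochberg method over the 19775 genes. With Notch1 L1601P+∆P, 1 gene rose and 8 fell, 25.7% of the set against 5.12% of all genes, 2.16% higher and 2.95% lower. Of all genes called there, 42.3% were higher with the deposited values and 55.9% after cyclic loess. With full-length Notch1, none of the 35 was called by limma, against 0.0354% of all genes, 0.0303% higher and 0.00506% lower. In that comparison 7 of the 35 had an unadjusted limma p under 0.05, against 1053 of the 19775 genes tested. The arrays of 7 did not overlap with those of vector, all 7 lower, where 11% of all genes did not overlap in either direction. The 3 comparisons share the vector arrays. The 9 genes called with Notch1 L1601P+∆P were among the 17 called with NICD, each in the same direction, and each log2 fold change was smaller in size.

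The median log2 fold change of the 35 genes was -0.07 with NICD, beside -0.02 over all genes. It was -0.03 with Notch1 L1601P+∆P and -0.04 with full-length Notch1, beside -0.01 over all genes in each. The genes moved in both directions, with extremes with NICD of -1.97 for ITGB4 and 1.30 for LAMA1. The count with Notch1 L1601P+∆P depended on single arrays. Without vector replicate 3 it was 3 lower, and without Notch1 L1601P+∆P replicate 1 or replicate 2 it was 4 lower. The higher count was 2 without vector replicate 1 or without NICD replicate 2. Signal level also differed among the genes: 18 had a mean at or above the median gene (6.66), of which 15 were called with NICD, while 2 of the 17 below it, ITGB2 and LAMA1, were called. The 3 brighter genes not called were ITGAE, ITGB7 and LAMC1. The shares of all genes called above and below this median are not given here. The counts by level are therefore not read as a trait of the set.

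RefSeq promoter windows (GRCh38.p14, 250 bases before to 50 bases after a start of the gene) were at hand for 24 of the 35 genes, in 31 windows. Some genes had more than 1 start and window. Windows of 4 genes are shown as examples of called genes whose window holds at least 1 of 3 motifs searched; the matches in other windows, among them those of ITGB1, LAMA2 and ITGA11, are not printed. The motifs, searched on both strands and with no overlap between them in these windows, were TGGGAA (core of the RBPJ site, RBPJ being the DNA-binding partner of NICD), GGAATG (TEAD) and TGANTCA (AP-1). Capitals mark the matches, and a match written as TTCCCA or CATTCC is the reverse complement. All 4 windows lie on the minus strand and are printed 5′ to 3′.
ITGA5, chr12:54419217-54419516: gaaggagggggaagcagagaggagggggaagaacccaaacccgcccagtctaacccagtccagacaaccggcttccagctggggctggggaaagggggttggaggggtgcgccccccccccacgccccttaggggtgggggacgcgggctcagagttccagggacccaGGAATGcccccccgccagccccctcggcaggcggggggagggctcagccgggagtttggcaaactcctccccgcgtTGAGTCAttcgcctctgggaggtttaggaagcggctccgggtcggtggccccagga
LAMB2, chr3:49133001-49133300: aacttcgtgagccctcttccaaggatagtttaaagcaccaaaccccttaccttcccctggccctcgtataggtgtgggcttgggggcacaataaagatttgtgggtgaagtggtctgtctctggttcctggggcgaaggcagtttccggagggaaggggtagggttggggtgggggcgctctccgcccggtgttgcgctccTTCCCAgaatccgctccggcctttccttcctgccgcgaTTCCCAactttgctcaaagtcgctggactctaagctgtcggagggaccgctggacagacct
LAMB3, chr1:209651325-209651624: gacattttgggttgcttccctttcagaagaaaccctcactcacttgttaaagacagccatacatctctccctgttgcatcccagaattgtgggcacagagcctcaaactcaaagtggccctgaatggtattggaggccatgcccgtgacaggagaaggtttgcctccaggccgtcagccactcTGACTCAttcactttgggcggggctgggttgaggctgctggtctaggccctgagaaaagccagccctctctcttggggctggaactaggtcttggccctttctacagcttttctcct
ITGA10, chr1:145910001-145910300: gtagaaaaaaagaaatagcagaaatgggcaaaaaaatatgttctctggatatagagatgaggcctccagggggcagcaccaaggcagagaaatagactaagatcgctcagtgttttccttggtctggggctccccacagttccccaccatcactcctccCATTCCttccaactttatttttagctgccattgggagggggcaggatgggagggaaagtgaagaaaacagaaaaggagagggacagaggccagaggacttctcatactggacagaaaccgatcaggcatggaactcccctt
In the ITGA5 window, GGAATG lay 82 bases and TGAGTCA 6 bases before the gene start. The LAMB2 window held the RBPJ core 49 and 11 bases before the gene start, and the ITGA10 window held the TEAD motif 91 bases before it. The printed LAMB3 window belongs to a start inside the gene, downstream of the gene start at chr1:209652425. It held TGACTCA 67 bases before that inner start. The other LAMB3 windows, at or near the gene start, held none of the 3 motifs. Over the 31 windows of the set, the RBPJ core was in 6.45%, the TEAD motif in 12.9% and the AP-1 motif in 6.45%. Over all 35116 windows of the same length these shares were 24%, 14% and 7.71%. A match is a description of the letters and no evidence of binding.

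The laminin-binding integrins fell together, apart from ITGA7. ITGB4, ITGA6 and ITGA3 fell with both NICD and Notch1 L1601P+∆P, ITGB4 to the largest extent of the 35 genes. ITGB4 encodes the long-tailed beta chain of the hemidesmosome. ITGB4 had log2 signals of 8.93, 9.14 and 8.93 on the NICD arrays, 10.38, 10.35 and 10.35 on the Notch1 L1601P+∆P arrays, 10.99, 11.02 and 10.99 on the full-length Notch1 arrays, and 10.97, 10.89 and 11.05 on the vector arrays. The NICD arrays were the lowest, the Notch1 L1601P+∆P arrays lay between, and the full-length Notch1 and vector arrays overlapped. The log2 fold change was -1.97 ± 0.06 with NICD (3.92-fold lower, adjusted p 1.75e-10) and -0.61 ± 0.06 with Notch1 L1601P+∆P (adjusted p 0.000106). With full-length Notch1 it was 0.03 ± 0.06 (adjusted p 0.996).

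ITGA6, the partner of ITGB4, followed the same order. ITGA6 had log2 signals of 10.36, 10.42 and 10.30 on the NICD arrays, 11.24, 11.19 and 11.22 on the Notch1 L1601P+∆P arrays, 11.49, 11.46 and 11.51 on the full-length Notch1 arrays, and 11.47, 11.35 and 11.47 on the vector arrays. No NICD or Notch1 L1601P+∆P array overlapped with a vector array. ITGA6 fell by 1.07 on the log2 scale with NICD (2.1-fold, adjusted p 8.75e-09) and by 0.21 with Notch1 L1601P+∆P (adjusted p 0.0376). The small change with Notch1 L1601P+∆P lost its call in 12 of 18 alternative settings, with adjusted p from 0.00193 to 0.131 over the 18, among them every fit without 1 of the Notch1 L1601P+∆P or full-length Notch1 arrays. ITGA3 encodes the alpha chain of another laminin receptor, which pairs with ITGB1. ITGA3 had log2 signals of 8.33, 8.47 and 8.42 on the NICD arrays, 9.12, 9.19 and 9.05 on the Notch1 L1601P+∆P arrays, 9.38, 9.48 and 9.46 on the full-length Notch1 arrays, and 9.33, 9.36 and 9.56 on the vector arrays. Its NICD arrays were again the lowest and its Notch1 L1601P+∆P arrays lay below all vector arrays. ITGA3 fell by 1.01 with NICD (2.01-fold, adjusted p 2.04e-07) and by 0.29 with Notch1 L1601P+∆P (adjusted p 0.0293, lost in 7 of 18 settings, 0.00247 to 0.105 over them). ITGA7, the laminin receptor chain of muscle, was not called in any comparison, at 0.13 with NICD, 0.08 with Notch1 L1601P+∆P and 0.07 with full-length Notch1.

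**Figure D1:**
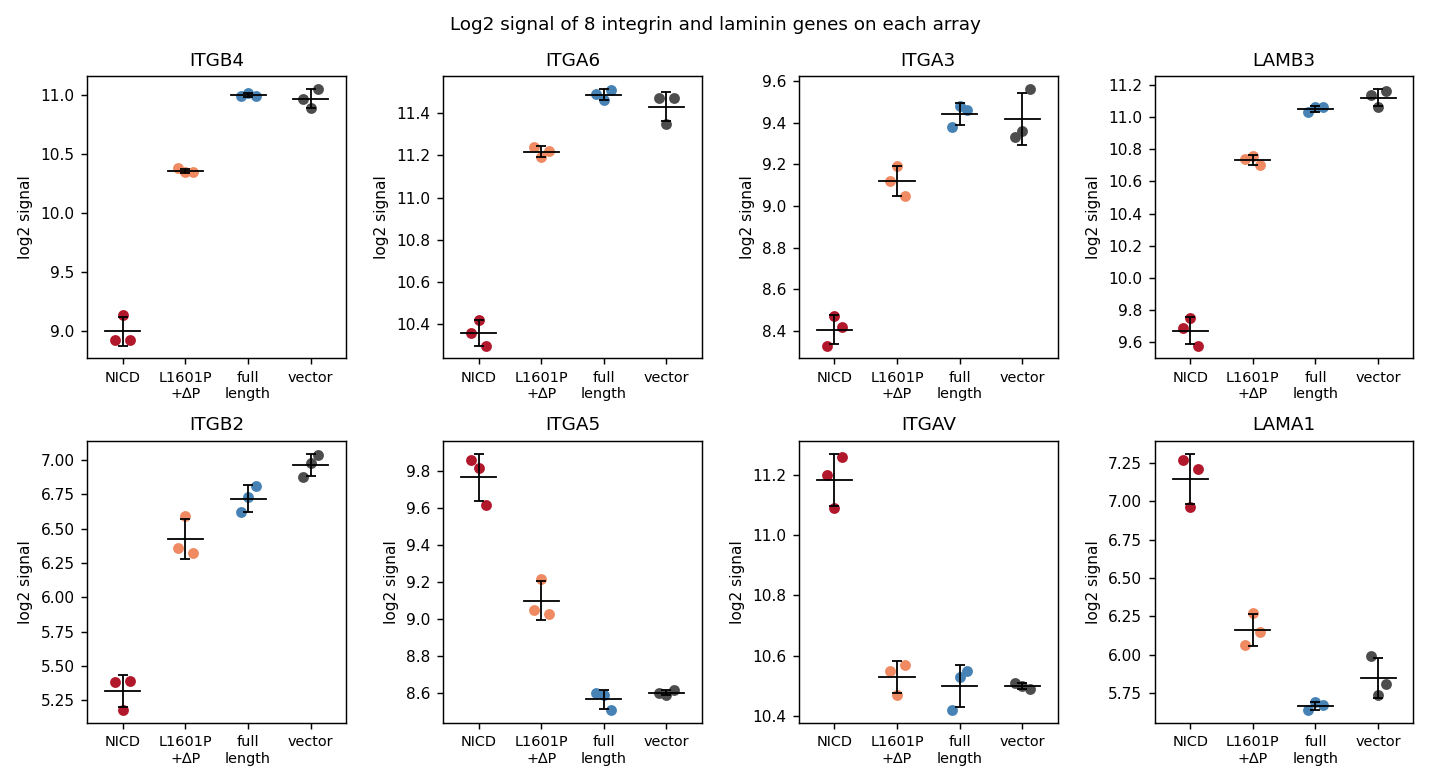
Log2 signal of 8 integrin and laminin genes on each array, with 1 point per array, the bar at the mean of 3 arrays, whiskers of 1 SD and a vertical scale that differs between panels and does not start at 0. ITGB4, ITGA6, ITGA3, LAMB3 and ITGB2 were lowest on the NICD arrays, and ITGA5, ITGAV and LAMA1 were highest there.

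The collagen-binding alpha chains, which pair with ITGB1, moved in different directions. With NICD, ITGA2 and ITGA10 fell, ITGA1 rose and ITGA11 was not called (0.12). ITGA2 had log2 signals of 9.09, 9.03 and 9.00 on the NICD arrays, 9.73, 9.70 and 9.91 on the Notch1 L1601P+∆P arrays, 9.82, 9.95 and 10.09 on the full-length Notch1 arrays, and 10.04, 10.02 and 9.93 on the vector arrays. All NICD arrays lay below the others, and the Notch1 L1601P+∆P arrays lay just below those of vector. ITGA2 fell by 0.96 ± 0.08 with NICD (1.94-fold, adjusted p 8.73e-07) and was at -0.21 with Notch1 L1601P+∆P (adjusted p 0.133). ITGA10 had log2 signals of 6.42, 6.31 and 6.32 on the NICD arrays, 6.87, 6.82 and 6.92 on the Notch1 L1601P+∆P arrays, 7.07, 6.99 and 6.89 on the full-length Notch1 arrays, and 7.25, 7.05 and 7.27 on the vector arrays. The NICD arrays lay lowest, and the Notch1 L1601P+∆P arrays lay below those of vector but overlapped with those of full-length Notch1. ITGA10 had 1 probe set and fell by 0.84 with NICD (adjusted p 1.3e-06) and by 0.32 with Notch1 L1601P+∆P (adjusted p 0.0203, lost in 5 of 18 settings, 0.00437 to 0.086 over them). ITGA1, a collagen receptor chain whose gene directly neighbours ITGA2 on chromosome 5 with no gene between them in RefSeq, averaged 7.17 ± 0.14 with NICD and 6.78 ± 0.03 with vector (SD, n = 3 arrays each). Its log2 fold change was 0.39 ± 0.09 (adjusted p 0.00387), opposite in sign to that of ITGA2.

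The alpha chains that bind the RGD sequence of fibronectin and vitronectin gave 2 of the 3 rises among the integrins with NICD, ITGA5 and ITGAV. ITGA5 encodes the alpha chain of the main fibronectin receptor, with ITGB1 as its partner. ITGA5 had log2 signals of 9.86, 9.82 and 9.62 on the NICD arrays, 9.05, 9.22 and 9.03 on the Notch1 L1601P+∆P arrays, 8.60, 8.59 and 8.51 on the full-length Notch1 arrays, and 8.60, 8.59 and 8.62 on the vector arrays. The NICD arrays were the highest and the Notch1 L1601P+∆P arrays lay between them and the other groups, with no overlap. ITGA5 was the only one of the 35 genes to rise with both forms against vector. The rise was 1.16 ± 0.07 with NICD (2.24-fold, adjusted p 7.6e-08) and 0.50 ± 0.07 with Notch1 L1601P+∆P (adjusted p 0.00138). Its promoter window printed above held the TEAD and AP-1 motifs and no RBPJ core. Any part of these motifs in the rise was not tested. ITGAV, which pairs with several beta chains to bind vitronectin and latent TGF-beta, rose with NICD. ITGAV had log2 signals of 11.20, 11.09 and 11.26 on the NICD arrays, 10.55, 10.47 and 10.57 on the Notch1 L1601P+∆P arrays, 10.42, 10.53 and 10.55 on the full-length Notch1 arrays, and 10.51, 10.50 and 10.49 on the vector arrays. All NICD arrays stood above the rest, and the other 3 groups overlapped. The log2 fold change was 0.68 ± 0.06 with NICD (1.6-fold, adjusted p 1.76e-06), 0.03 with Notch1 L1601P+∆P and 0.00 with full-length Notch1, and NICD exceeded Notch1 L1601P+∆P by 0.65 (adjusted p 4.47e-06). ITGA8, a chain known from kidney and smooth muscle, and ITGA2B, the platelet chain, were below the median level of all genes and not called, at -0.18 and -0.06 with NICD.

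Of the 3 genes grouped as beta partners of ITGAV, 2 fell with NICD and none was called higher. ITGB8, whose pair with ITGAV activates latent TGF-beta, fell with NICD. ITGB8 had log2 signals of 10.11, 9.96 and 10.01 on the NICD arrays, 10.57, 10.49 and 10.57 on the Notch1 L1601P+∆P arrays, 10.64, 10.83 and 10.93 on the full-length Notch1 arrays, and 10.83, 10.84 and 10.62 on the vector arrays. The NICD arrays were the lowest and the full-length Notch1 and vector arrays overlapped. It fell by 0.74 with NICD (adjusted p 1.73e-05) and stood at -0.22 with Notch1 L1601P+∆P (adjusted p 0.148), where the arrays did not overlap with vector. ITGB5, a vitronectin receptor chain, fell by 0.22 with NICD (adjusted p 0.0102), a call that was lost after cyclic loess normalization (-0.12, adjusted p 0.187, the lowest over 18 settings being 0.00165). ITGB3, the platelet and osteoclast chain, was not called (-0.12). ITGB1, the beta chain shared by most matrix-binding integrins, had the values that follow. Its log2 signals were 12.95, 12.87 and 12.86 on the NICD arrays, 13.21, 13.21 and 13.30 on the Notch1 L1601P+∆P arrays, 13.41, 13.43 and 13.40 on the full-length Notch1 arrays, and 13.44, 13.46 and 13.38 on the vector arrays. The NICD arrays were the lowest and the Notch1 L1601P+∆P arrays lay between. ITGB1 fell by 0.53 with NICD (1.45-fold, adjusted p 4.56e-06), and was at -0.19 with Notch1 L1601P+∆P (adjusted p 0.0559).

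Of the 9 chains known mainly from leukocytes, or outside the groups above, ITGB2 alone was called. It encodes the beta chain that pairs with ITGAL, ITGAM, ITGAX and ITGAD on leukocytes. ITGB2 had log2 signals of 5.38, 5.18 and 5.39 on the NICD arrays, 6.36, 6.59 and 6.32 on the Notch1 L1601P+∆P arrays, 6.62, 6.73 and 6.81 on the full-length Notch1 arrays, and 6.88, 6.98 and 7.04 on the vector arrays. The 4 groups did not overlap with one another, with NICD lowest and vector highest. ITGB2 fell by 1.65 with NICD (3.14-fold, adjusted p 1.37e-08) and by 0.54 with Notch1 L1601P+∆P (adjusted p 0.00263), and was at -0.24 with full-length Notch1 (adjusted p 0.856). Its 4 leukocyte alpha partners were not called in any comparison and lay between -0.08 (ITGAL) and 0.19 (ITGAM) with NICD. ITGA4, ITGA9, ITGAE and ITGB7, of which ITGAE and ITGB7 form the receptor for E-cadherin on intraepithelial lymphocytes, ranged from -0.24 (ITGA4) to 0.14 (ITGB7) with NICD and were not called.

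The laminin chains changed in both directions. With NICD, LAMA1 and LAMB2 rose, and LAMB3, LAMA5 and LAMB1 fell. LAMB3 is the beta chain of the epithelial laminin that lies under hemidesmosomes. LAMB3 had log2 signals of 9.69, 9.75 and 9.58 on the NICD arrays, 10.74, 10.76 and 10.70 on the Notch1 L1601P+∆P arrays, 11.03, 11.06 and 11.06 on the full-length Notch1 arrays, and 11.14, 11.06 and 11.16 on the vector arrays. The NICD arrays were the lowest, followed by the Notch1 L1601P+∆P arrays. LAMB3 fell by 1.44 with NICD (2.72-fold, adjusted p 6.4e-10) and by 0.38 with Notch1 L1601P+∆P (adjusted p 0.00119). LAMA5, the alpha chain of a laminin found in most mature basement membranes, had a smaller change. LAMA5 had log2 signals of 9.43, 9.50 and 9.57 on the NICD arrays, 9.83, 9.89 and 9.69 on the Notch1 L1601P+∆P arrays, 10.01, 10.08 and 10.03 on the full-length Notch1 arrays, and 10.16, 10.04 and 10.26 on the vector arrays. The NICD arrays were the lowest, the Notch1 L1601P+∆P arrays lay between, and the full-length Notch1 and vector arrays overlapped. It fell by 0.65 with NICD (adjusted p 1.61e-05) and by 0.35 with Notch1 L1601P+∆P (adjusted p 0.0134, lost in 3 of 18 settings, 0.000258 to 0.0617 over them).

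LAMA1, the alpha chain of the laminin of early embryonic basement membranes, had the largest rise of the set. LAMA1 had log2 signals of 7.27, 6.96 and 7.21 on the NICD arrays, 6.06, 6.27 and 6.15 on the Notch1 L1601P+∆P arrays, 5.64, 5.69 and 5.67 on the full-length Notch1 arrays, and 5.99, 5.74 and 5.81 on the vector arrays. The 4 groups did not overlap, with NICD highest and full-length Notch1 lowest. LAMA1 rose by 1.30 ± 0.09 with NICD (2.46-fold, adjusted p 1.99e-07), and was at 0.31 with Notch1 L1601P+∆P (adjusted p 0.0669) and -0.18 with full-length Notch1 (adjusted p 0.942). LAMB1, the beta chain found in many laminins, fell by 0.32 with NICD (adjusted p 0.00351) and by 0.29 with Notch1 L1601P+∆P (adjusted p 0.0285, lost in 7 of 18 settings, 0.00109 to 0.11 over them). LAMB2, a beta chain of the neuromuscular junction and the glomerulus, averaged 8.47 ± 0.09 with NICD and 8.08 ± 0.05 with vector (SD, n = 3 arrays each), a rise of 0.39 ± 0.07 (adjusted p 0.000943). LAMC1, the gamma chain of most laminins, was at -0.07 with NICD, and LAMC3 was at -0.15. LAMA2, LAMA4 and LAMB4 were at -0.04, 0.18 and 0.10 and were not called against vector.

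**Figure D2:**
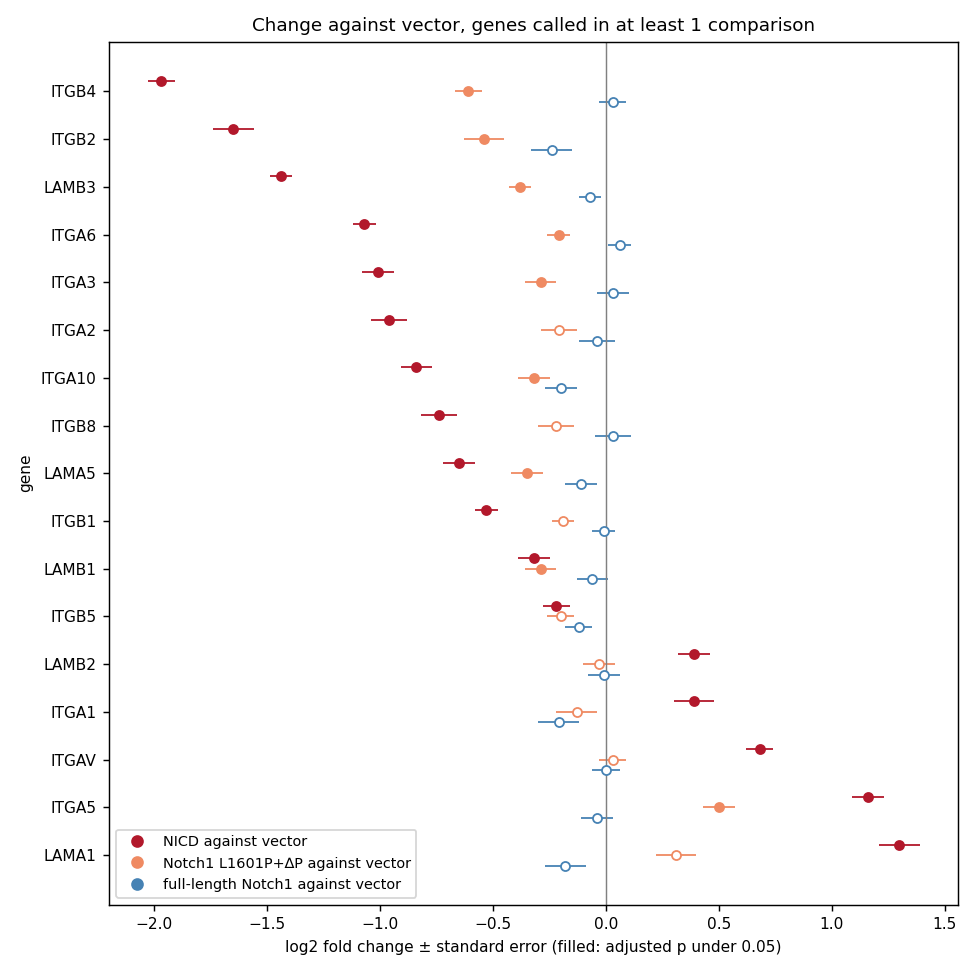
Log2 fold change against vector with its standard error for the 17 genes called in at least 1 comparison with vector, with filled points for an adjusted p under 0.05. The NICD points ran from -1.97 (ITGB4) to 1.30 (LAMA1), the Notch1 L1601P+∆P points lay nearer to 0 for each gene, and no full-length Notch1 point was filled.

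Several probe sets of a gene did not always give the same answer. Of the 10 genes called with NICD that had several, 3 (ITGA2, ITGA6 and LAMB1) had every probe set called in the same direction, and 7 had some that were not called. None had a probe set called the other way. ITGB4 had 3 probe sets at -1.97, -1.98 and -1.92 and its 2 dimmest at 0.09 and -0.13. ITGB8 was called on 4 of 5 probe sets (-1.18 to -0.60) and ITGB1 on 4 of 7 (-0.84 to -0.36). ITGB2 was called on 2 of 3, at -1.65 and -1.02, with the third at 0.07. LAMA1 was at 1.30 on the brightest probe set and at 0.28 on the other (adjusted p 0.0895 over all probe sets). In the comparison of Notch1 L1601P+∆P with vector, ITGB1 was called on other probe sets at -0.30 and -0.32 though not on its brightest, and LAMB1 and ITGA6 were no longer called when p was adjusted over all probe sets (0.0597 and 0.0873). ITGA9, a tenascin and osteopontin receptor chain, was not called on its brightest probe set, but with NICD a further probe set read 4.50 against 3.51 with vector (0.99 ± 0.09, adjusted p 3.82e-06) and another read -0.30 (adjusted p 0.00444). LAMC1 fell by 0.34 on its second probe set (adjusted p 0.00173).

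**Figure D3:**
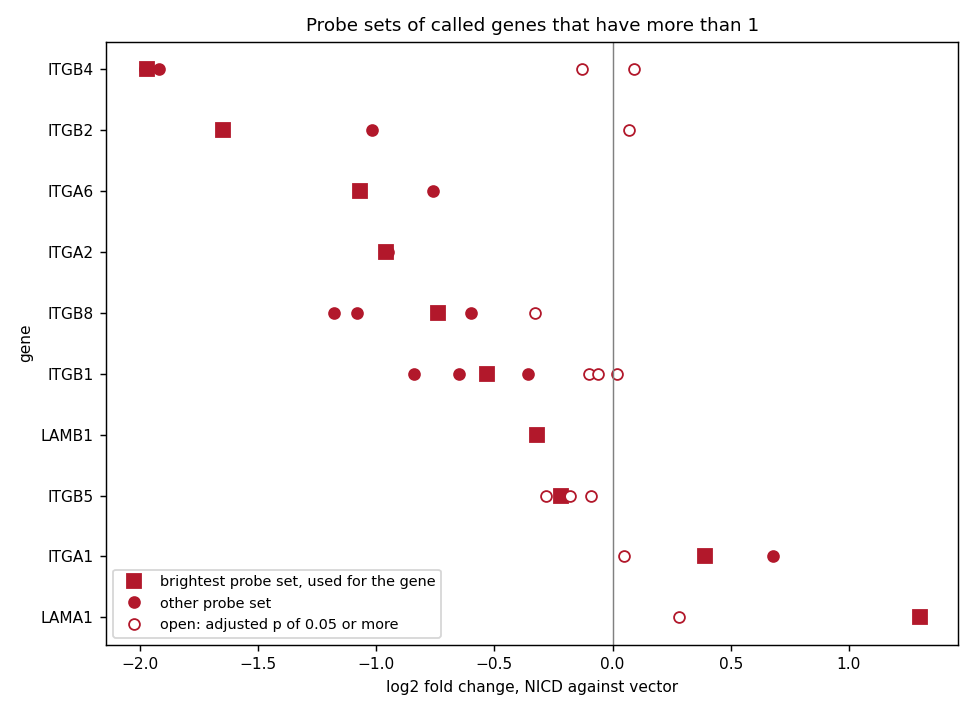
Log2 fold change of each probe set, NICD against vector, for the 10 called genes that have several, with the brightest probe set as a square, other probe sets as circles and open symbols for an adjusted p of 0.05 or more. For ITGB4 and ITGB2 the called probe sets lay below -1 and the uncalled ones near 0.

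The 3 Notch1 forms were then compared with each other. Between NICD and Notch1 L1601P+∆P, 15 of the 35 genes were called, 5 higher and 10 lower, against 19.8% of all genes, 8.73% higher and 11.1% lower. These were the genes called with NICD against vector except LAMB1 (-0.03) and ITGB5 (-0.02). ITGB4 was lower with NICD than with Notch1 L1601P+∆P by 1.36 ± 0.06 (adjusted p 1.25e-08), and LAMA1 was higher by 0.99 ± 0.09 (adjusted p 4.69e-06). Between NICD and full-length Notch1, 17 were called, 6 higher and 11 lower, against 27% of all genes, 10.1% higher and 17% lower. LAMA2, the alpha chain of muscle laminin, was the additional rise at 0.29 (adjusted p 0.011, or 0.0548 without full-length Notch1 replicate 3, the highest of 17 settings, whose lowest was 0.0044).

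Between Notch1 L1601P+∆P and full-length Notch1, 2 genes were higher and 4 lower, against 3.72% of all genes, 1.86% in each direction. ITGA5 and LAMA1 were higher, by 0.53 ± 0.07 (adjusted p 0.00109) and 0.49 ± 0.09 (adjusted p 0.00836). ITGB4 was lower at -0.64 ± 0.06 (adjusted p 8.8e-05), followed by ITGA3 at -0.32, LAMB3 at -0.31 and ITGA6 at -0.27. The calls of ITGA3 and ITGA6 were lost in 5 and 2 of 18 settings, and without full-length Notch1 replicate 3 both were gone, which left 2 lower. ITGB4, LAMB3, ITGA3, ITGA6 and ITGA5 were the 5 genes called in all comparisons except full-length Notch1 against vector.

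**Figure D4:**
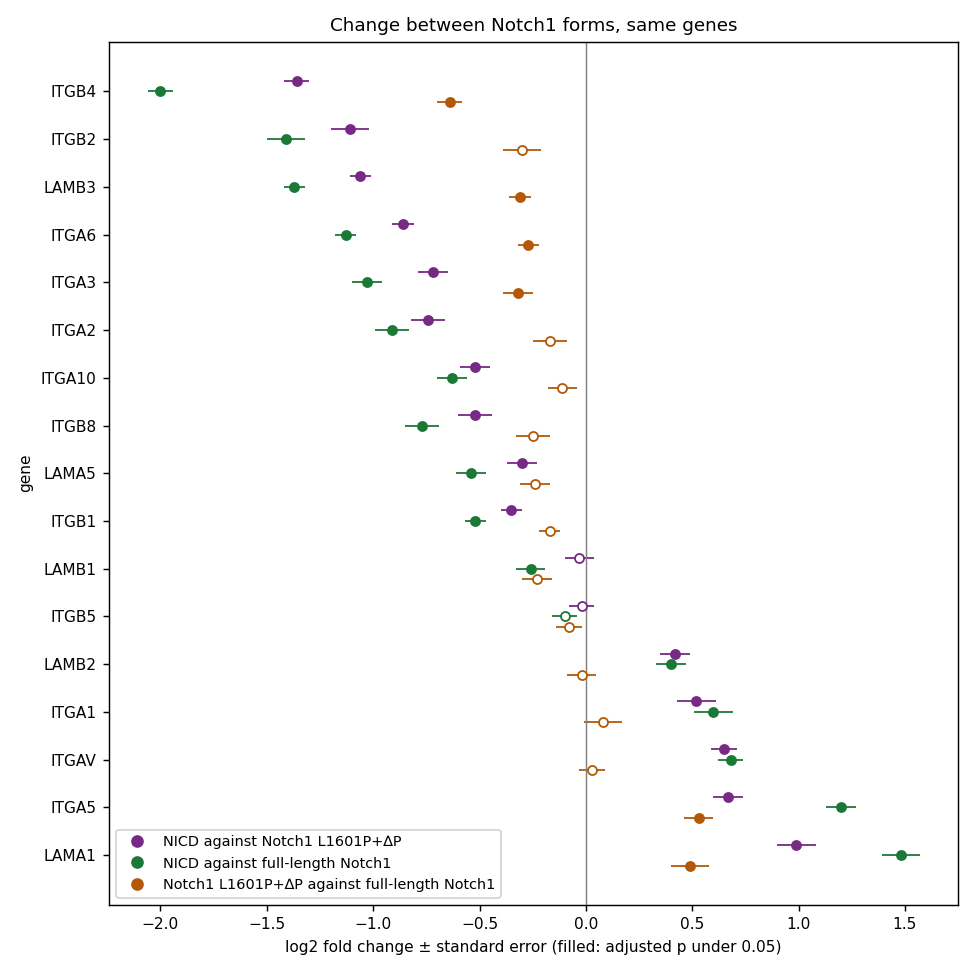
Log2 fold change with its standard error between pairs of Notch1 forms for the same 17 genes, with filled points for an adjusted p under 0.05. NICD against full-length Notch1 gave the widest range, from -2.00 (ITGB4) to 1.48 (LAMA1).

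Genes that work with these chains were counted in 5 lists. Over all genes, 9.54% were called higher and 18.1% lower with NICD, and 2.16% and 2.95% with Notch1 L1601P+∆P. Of 8 tested partners in the hemidesmosome or in laminin binding, 5 fell and none rose with NICD (median -0.56, beside -0.02 over all genes). With Notch1 L1601P+∆P 4 fell (median -0.20, beside -0.01). COL17A1 and DAG1, also on this list, were not among the genes tested. DST and PLEC, the plakins that tie ITGB4 to keratin filaments, fell by 1.82 and 1.17 with NICD and by 0.46 and 0.38 with Notch1 L1601P+∆P. COL7A1, the collagen of anchoring fibrils, fell by 0.83 with NICD and by 0.34 with Notch1 L1601P+∆P. The syndecan SDC1, a coreceptor at the cell surface, fell by 0.65 with NICD and by 0.30 with Notch1 L1601P+∆P.

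Other basement membrane genes were divided, with 5 of 16 higher and 5 lower with NICD (median 0.09). With Notch1 L1601P+∆P none was higher and 3 were lower. For this list and the next, the shares over all genes were 9.54% higher and 18.1% lower with NICD. With Notch1 L1601P+∆P they were 2.16% and 2.95%. The collagen IV chains showed it: COL4A2 rose by 0.76 with NICD and COL4A1 by 1.56, while COL4A6 fell by 1.62 and COL4A5 by 0.74. COL18A1, a basement membrane collagen, rose by 2.58 and HSPG2, or perlecan, fell by 0.53. Of 27 integrin ligands of the matrix, 12 rose and 3 fell with NICD (median 0.14), and 3 rose and 2 fell with Notch1 L1601P+∆P. SPP1, an RGD ligand of ITGAV, rose by 3.69 with NICD and was at 0.15 with Notch1 L1601P+∆P. POSTN, another ITGAV ligand, rose by 4.38 with NICD and by 2.07 with Notch1 L1601P+∆P. Both were near the low end of the scale with vector, where summarised signals are compressed. FN1, named because fibronectin is the ligand of ITGA5, rose by 1.07 with NICD and was at 0.07 with Notch1 L1601P+∆P. The 3 ligand genes that fell with NICD were THBS1, CCN2 and TGFBI. THBS1 read 7.56 to 7.73 on the NICD arrays and 8.77 to 8.91 on the vector arrays. CCN2 and TGFBI also fell with Notch1 L1601P+∆P. With full-length Notch1, 1 of the 27 was called, CCN1 at 0.53. CCN1 and FBN1 also rose with both NICD and Notch1 L1601P+∆P. CCN1 read 11.86 to 12.06 on the NICD arrays, 10.94 to 11.13 on the Notch1 L1601P+∆P arrays and 8.70 to 8.85 on the vector arrays. FBN1 read 9.20 to 9.38, 6.63 to 6.96 and 5.77 to 6.04 in the same order.

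**Figure D5:**
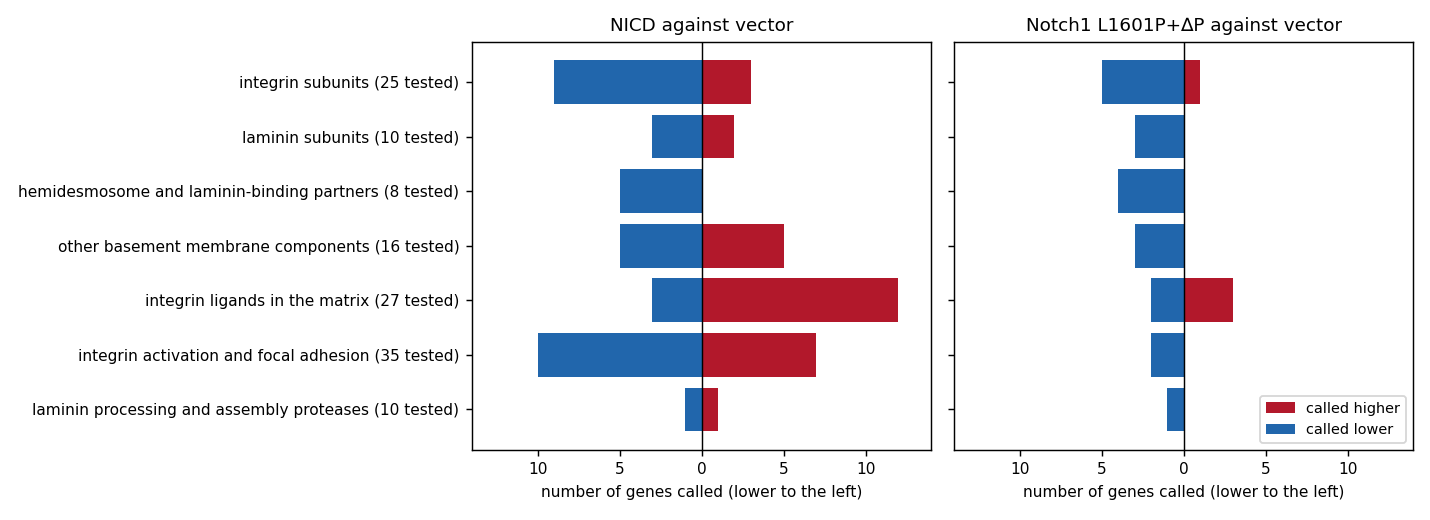
Number of genes called higher (right of 0) and lower (left of 0) in each list, with NICD against vector and Notch1 L1601P+∆P against vector in separate panels. With NICD, 12 of 27 integrin ligands were higher, and none of 8 hemidesmosome and laminin-binding partners was. Over all genes, 9.54% were higher.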

How the data were processed

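Total RNA of 12 MCF-10A cultures was labelled with biotin and hybridised to Affymetrix arrays of 54675 probe sets, per the labels' protocols. The deposited values are log2 signals on which the authors ran RMA (background correction, quantile normalization, probe set summary), and limma was also used, per the submitters' processing notes. No version of either tool is given in the sources used here. Signals lay between 2.27 and 15.01, with array medians of 5.64 to 5.70. Quantile normalization hides a shift of most genes in 1 direction, and dim signals are compressed, so folds of dim genes are understated. Arrays have no read depth, and 3 arrays per group limit the precision. Arrays of 1 group correlated at 0.997 to 0.9985.

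Gene names came from the platform annotation, in which 41091 probe sets had 1 symbol, 1801 several and 11721 none, and 62 were controls. A RefSeq gene number matched for 41037 of the first kind. Probe sets with several symbols were not used, among them 5 shared between an integrin or laminin symbol and another. The brightest probe set was taken per gene. All 12 arrays were fitted in limma 3.58.1 (R 4.3.3) with group means as the terms (8 residual degrees of freedom, 4.09 added by moderation). The 6 comparisons were two-sided and adjusted over 19775 genes, and a separate fit covered all probe sets. The procedure was tested on simulated data. Replicates are biological per the labels, with nothing more on how separate the cultures were, so the p-values cover only the spread between samples, which may be technical. No scan date or batch was given in the sources used here.

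Per-array values are given for genes called against vector with a log2 change of at least 0.5. From other lists, up to 4 called genes per direction are named, with FN1 in addition. The members and lists were chosen with earlier results of these data known. The alternatives were cyclic loess, a filter on genes below the median level, the mean of all probe sets, eBayes with trend and robust options, the arrays of 2 groups only, a replicate block and leaving out each array, 18 fits in all.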

Additional observations from a re-analysis of the deposited data

Results flagged for a closer look

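LAMA1 lay on opposite sides of vector in different Notch1 groups, with no overlap of arrays. Its arrays were above those of vector with NICD (6.96 to 7.27) and with Notch1 L1601P+∆P (6.06 to 6.27), and below them with full-length Notch1 (5.64 to 5.69), where vector gave 5.74 to 5.99. The difference itself was tested in limma: NICD exceeded full-length Notch1 by 1.48 (adjusted p 6.02e-08) and Notch1 L1601P+∆P exceeded it by 0.49 (adjusted p 0.00836). Against vector, LAMA1 was not called with full-length Notch1 (-0.18, adjusted p 0.942). These values rest on its brightest probe set. On its other probe set LAMA1 differed by 0.02 between full-length Notch1 and vector, and it was called neither between NICD and full-length Notch1 (0.27, adjusted p 0.114) nor between Notch1 L1601P+∆P and full-length Notch1 (0.22, adjusted p 0.363).

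ITGA1 showed the same between NICD and full-length Notch1. Its arrays read 7.08 to 7.33 with NICD, 6.50 to 6.70 with full-length Notch1 and 6.76 to 6.82 with vector. NICD exceeded full-length Notch1 by 0.60 (adjusted p 0.000158), and ITGA1 was not called between full-length Notch1 and vector (-0.21, adjusted p 0.899). The lower position with full-length Notch1 rests on arrays that did not overlap, which 11% of all genes showed in that comparison.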

How the results depend on the processing

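ITGB2, LAMA1 and LAMA2 lay below the median level, so the fit without such genes did not hold them. With NICD against vector, 16 of the 17 genes kept their call in every alternative that held them, ITGB5 being the exception. With Notch1 L1601P+∆P against vector 4 of 9 did (ITGB4, ITGB2, LAMB3 and ITGA5). All 15 genes called between NICD and Notch1 L1601P+∆P did, 15 of 17 between NICD and full-length Notch1 (LAMB1 reached adjusted p 0.106 after cyclic loess, with 0.000642 the lowest over the settings, and LAMA2 0.0548), and 4 of 6 between Notch1 L1601P+∆P and full-length Notch1. The genes lower with Notch1 L1601P+∆P against vector, 8 in the reported fit, numbered 4 after cyclic loess, 3 with the arrays of the 2 groups only, and 3 to 9 when 1 array was left out, with 1 to 2 higher. They numbered 12 with trend and robust options, with 2 higher, and 11 with the mean of all probe sets. Against full-length Notch1, Notch1 L1601P+∆P gave 8 lower and 1 higher gene without dim genes, a fit that did not hold LAMA1. The same comparison gave 8 lower with trend and robust options, and 2 to 5 lower when 1 array was left out. The cause of these shifts was not tested, beyond the smaller number of genes or arrays that some settings hold. No value of a called gene changed sign. ITGA9, uncalled, ranged with 1 array left out from -0.09 (without NICD replicate 2) to 0.24 (without NICD replicate 3) for NICD against vector, from -0.01 to 0.32 against full-length Notch1 and from -0.21 to 0.12 against Notch1 L1601P+∆P, where it also read 0.01 without Notch1 L1601P+∆P replicate 1 and after cyclic loess, and 0.19 with the mean of all probe sets (adjusted p 0.0404). LAMC1 with NICD read 0.03 against vector and 0.07 against full-length Notch1 after cyclic loess. With the mean of all probe sets, limma called LAMC1 lower with NICD against vector (-0.20, adjusted p 0.00443) and full-length Notch1 (-0.16, adjusted p 0.0172). In that setting ITGA9 was called higher with NICD against vector (0.18, adjusted p 0.0373) and full-length Notch1 (0.26, adjusted p 0.00456). Cyclic loess also moved the share of higher genes among all called to 51.4% (NICD against full-length Notch1, 37.3% as deposited). The replicate block gave 5 higher and 12 lower genes with NICD against vector and 1 higher and 7 lower with Notch1 L1601P+∆P, where ITGA6 lost its call (adjusted p 0.0694). Over 18 pairs of same-numbered arrays, deviations correlated at -0.11 to 0.16, and 3 of 12 arrays correlated best with their own number, so the numbers were not taken to pair the samples. Dim genes near the low end of the scale could hold changes that these arrays do not show.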

Other observations

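Genes whose proteins link integrins to actin and signalling changed in both directions. Of 35 genes of integrin activation and focal adhesions, 7 rose and 10 fell with NICD (median 0.01), beside 9.54% and 18.1% of all genes. With Notch1 L1601P+∆P none rose and 2 fell (RAP1A and TNS4), beside 2.16% and 2.95% of all genes. With full-length Notch1 none rose and 1 fell (RAP1A), beside 0.0303% and 0.00506% of all genes. RAP1A, a small GTPase that promotes integrin activation, fell by 2.10 with NICD, by 1.58 with Notch1 L1601P+∆P and by 1.17 with full-length Notch1 on its brightest probe set (limma adjusted p 2.48e-11, 3.83e-09 and 7.51e-07). Of its 4 probe sets, the second brightest gave -2.42, -1.87 and -1.44 in the same comparisons, and the remaining ones were not called with any form against vector (0.14 and 0.08 with NICD). The probe sets of RAP1A thus disagree, and where they lie in its transcripts was not analysed here. The tensins, which bind integrin tails and actin, were divided: TNS3 rose by 1.20 and TNS2 by 1.18 with NICD, while TNS4 fell by 1.17. FERMT2, a kindlin that activates integrins, rose by 0.86, and PTK2, the focal adhesion kinase, rose by 0.42. The adaptor PXN fell by 0.68 and CAV1, the caveolar protein, by 0.65. With Notch1 L1601P+∆P, TNS4 fell by 0.29 and TNS3, TNS2, FERMT2, PTK2, PXN and CAV1 were not called.

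Of 10 genes of proteases that process laminin or other matrix proteins (median 0.07 with NICD), 1 rose and 1 fell with NICD. Over all genes, 9.54% were called higher and 18.1% lower with NICD, and 2.16% and 2.95% with Notch1 L1601P+∆P. BMP1, which cleaves laminin chains and procollagens, rose by 0.45 with NICD. PLAT, which makes plasmin, fell by 0.43 with NICD and by 0.28 with Notch1 L1601P+∆P. The other 8 were not called with either form.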
